A study of Mus musculus with 6 samples.

Results

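Transcript levels of 9 genes of zinc handling were compared in the epidermis of newborn mice, the keratinocyte layer that covers the skin. The genes were taken by name from the deposited count table of 54532 genes. They are the metallothionein genes Mt1, Mt2 and Mt4, the zinc exporter gene Slc30a1, and the zinc importer genes Slc39a2, Slc39a4, Slc39a8, Slc39a10 and Slc39a14. Each name matched a single entry, and 8 of the 9 passed the filter on low counts. There were 3 libraries from mice with the genotype Paxbp1 knockout and 3 from wild type mice, all from epidermis freed of dermis after Dispase II. The labels do not give the knockout allele, any promoter or Cre line, the strain or the animals per library.

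Metallothioneins are small, cysteine-rich proteins that bind zinc and copper in the cytosol. Transcription of Mt1 and Mt2 is switched on by zinc through the transcription factor MTF1, which binds metal response elements in their promoters, and also by glucocorticoids and inflammatory cytokines. Members of the Slc39a (ZIP) family carry zinc into the cytosol, whereas members of the Slc30a (ZnT) family carry it out of the cell or into organelles. The epidermis depends on zinc, and loss of the intestinal importer ZIP4 causes the inherited skin disease acrodermatitis enteropathica.

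The importer genes differed in both directions, and the metallothionein genes Mt1 and Mt2 were both higher. Mt1, Mt2 and the importer gene Slc39a14 were higher in the libraries labelled knockout, and the importer genes Slc39a2 and Slc39a10 and the exporter gene Slc30a1 were lower. The largest differences among the 8 tested genes were in Slc39a14 and Slc39a2. Slc39a14 went from 7.86 ± 2.74 to 122 ± 32.7 CPM and Slc39a2 from 29.3 ± 14.3 to 1.74 ± 0.132 CPM (mean ± SD, n = 3 each). CPM are counts scaled to the library total times a normalization factor of each library (TMM). Slc39a8 and Slc39a4 did not pass the test, and Mt4 had too few counts to be tested. A gene was called at an edgeR adjusted p under 0.05 over all genes tested. By this rule 3 of the 8 tested genes were higher and 3 were lower, against 28.7% higher and 25.1% lower among all 16471 genes tested. In either direction 6 of the 8 were called, against a background of 53.8%. Errors of log2 fold changes are SE.

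Library totals ran from 16315317 to 17816327 counts. The count of Paxbp1 over the whole gene came to 2007, 1159 and 1467 for the wild type (replicates 1, 2, 3), with 2370, 1127 and 1125 for the knockout (log2 fold change 0.10 ± 0.29, edgeR adjusted p = 0.783). The gene total thus does not check the genotype, and the directions given below follow the labels, hence the wording 'libraries labelled knockout'. Both libraries numbered 1 had more genes with a count (24236 and 24380) than the others (22059 to 22556). Markers of the epidermis were present in the wild type, where 12 suprabasal keratinocyte genes summed to 68252 to 123920 CPM, and were lower in the libraries labelled knockout (3052 to 7685 CPM). All 10 basal keratinocyte genes and 10 of 11 suprabasal genes tested were lower there, against 25.1% lower and 28.7% higher among all genes tested. In the same libraries 12 of 12 macrophage, 8 of 8 neutrophil, 9 of 10 fibroblast, 4 of 5 endothelial and 6 of 6 red blood cell genes tested were higher. Of these, 1 macrophage, 7 neutrophil, 3 fibroblast, 3 endothelial and 4 red blood cell genes passed the filter only through the libraries labelled knockout. The filter itself thus favoured their direction. The remaining tested genes were higher in 11 of 11, 1 of 1, 6 of 7, 1 of 2 and 2 of 2 cases. Of 6 melanocyte genes 3 were lower (Dct, Tyr and Pmel) and Mlana was higher. Of 6 T cell and Langerhans cell genes tested Cd3e, Cd3g and Epcam were lower and the antigen presentation genes H2-Ab1 and Cd74 higher. Cd3e and Trdc, which was not called, passed the filter only through the wild type. The other 4 of this list held 2 higher and 2 lower. The macrophage genes summed to 181 to 205 CPM in the wild type and 10391 to 19409 CPM in the libraries labelled knockout, and the fibroblast genes to 473 to 477 and 4062 to 10209 CPM. The neutrophil genes Ly6g and Retnlg, the endothelial gene Emcn and the Langerhans cell gene Cd207 had no wild type count. In the libraries labelled knockout (replicates 1, 2, 3) Retnlg had 463, 1010 and 707 counts. Ly6g (7, 33 and 17 counts there), Emcn (3, 0 and 2) and Cd207 (1, 2 and 5) had too few to be tested. The part of this difference in cell types in the results below was not tested. In bulk tissue, fewer cells of a type and less RNA per cell cannot be told apart.

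The promoters of Mt1, Mt2, Mt4 and Slc30a1 are shown because Mt1, Mt2 and Slc30a1 are known targets of MTF1 and differed in direction, and Mt4 lies in the same gene cluster. The sequences are the 250 bases before the RefSeq transcription start (GRCm38.p6), each 5′ to 3′ on the plus strand. They lie at chr8:94178839-94179088 for Mt1, chr8:94172368-94172617 for Mt2, chr8:94136954-94137203 for Mt4 and chr1:191906531-191906780 for Slc30a1. Capitals mark matches on either strand to the core of the metal response element, searched as TGCACNC and TGCGCNC.
Mt1: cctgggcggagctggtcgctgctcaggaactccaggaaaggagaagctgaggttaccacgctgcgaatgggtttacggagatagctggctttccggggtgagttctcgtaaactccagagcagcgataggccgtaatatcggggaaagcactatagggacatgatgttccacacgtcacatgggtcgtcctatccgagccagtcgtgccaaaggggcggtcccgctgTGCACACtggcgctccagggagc
Mt2: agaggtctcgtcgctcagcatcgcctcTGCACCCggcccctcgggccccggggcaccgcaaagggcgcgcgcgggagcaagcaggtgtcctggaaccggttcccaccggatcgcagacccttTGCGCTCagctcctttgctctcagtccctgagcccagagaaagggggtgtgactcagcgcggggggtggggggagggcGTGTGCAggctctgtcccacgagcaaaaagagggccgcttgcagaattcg
Mt4: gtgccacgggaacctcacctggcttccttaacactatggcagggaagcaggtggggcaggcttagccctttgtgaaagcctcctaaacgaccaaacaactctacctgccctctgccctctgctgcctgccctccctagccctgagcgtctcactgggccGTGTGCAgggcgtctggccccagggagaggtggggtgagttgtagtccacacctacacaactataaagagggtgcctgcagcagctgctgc
Slc30a1: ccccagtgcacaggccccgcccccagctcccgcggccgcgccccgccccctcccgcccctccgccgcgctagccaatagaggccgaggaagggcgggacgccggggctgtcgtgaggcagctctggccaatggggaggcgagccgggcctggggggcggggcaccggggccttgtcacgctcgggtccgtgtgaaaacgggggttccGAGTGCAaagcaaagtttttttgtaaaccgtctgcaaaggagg
The search was made in windows of 300 bases, which add the first 50 bases after the start. Mt2 had 4 matches, 3 of them in the sequence shown, and Mt1 had 3, of which TGCACTC and TGCGCTC lie after the RefSeq start. Mt1 has 3 annotated transcripts, and which start was used in these libraries was not tested. Relative to another start, the side of a match and the matches within the window could differ. Slc30a1 had 2 matches and Mt4 had 1. At least 1 match was held by 25.7% of the 32851 promoter windows that RefSeq gives, with 7.11% at least 2, 1.97% at least 3 and 0.517% at least 4. RefSeq promoters were matched for 7 of the 9 genes. The windows of Slc39a2 and Slc39a10 held no match, and 1 of the 2 windows of Slc39a8 held 1. A match is a stretch of letters and was not tested for binding.

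Mt1 (ENSMUSG00000031765, chromosome 8, 94179082 to 94180327, plus strand, mm10) encodes the more abundant metallothionein of this tissue. Its level was 55.3, 86.3 and 64.8 CPM in replicates 1 to 3 of the wild type, against 91.9, 222 and 185 CPM for libraries labelled knockout. The groups did not overlap, but knockout replicate 1 lay close above wild type replicate 2. Mt1 rose from 68.8 ± 15.9 to 166 ± 67.1 CPM, a log2 fold change of 1.27 ± 0.32 (edgeR adjusted p = 0.00608), with a 95% interval of the fold from 1.48 to 3.95.

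Mt2 (ENSMUSG00000031762, chromosome 8, 94172664 to 94173568, plus strand) encodes the isoform that is co-regulated with Mt1 in most tissues. It had 3.44, 10.1 and 8.54 CPM in the wild type and 10.4, 23.7 and 19.7 CPM in the libraries labelled knockout. In each group replicate 1 was the lowest, as it was for Mt1, and knockout replicate 1 was again next to wild type replicate 2. Mt2 rose from 7.36 ± 3.48 to 17.9 ± 6.82 CPM, a log2 fold change of 1.28 ± 0.41 (edgeR adjusted p = 0.0220). The call of Mt2 was lost without wild type replicate 1 (log2 fold change 0.93, edgeR adjusted p = 0.0565), knockout replicate 2 (adjusted p = 0.0787) or knockout replicate 3 (adjusted p = 0.0568). The ratio of Mt1 to Mt2 counts was 8.87, 9.39 and 9.41 in the libraries labelled knockout and 16.1, 8.55 and 7.59 in the wild type. The highest ratio belonged to wild type replicate 1, where Mt2 had 63 counts. The groups overlapped in this ratio (exact permutation test, two-sided, p = 1.00), but 3 against 3 libraries cannot go below 0.1, so the test does not show that the ratio was alike.

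Mt4 (ENSMUSG00000031757, chromosome 8, 94137197 to 94139031, plus strand) encodes the metallothionein of stratified squamous epithelia. The wild type libraries held 12, 1 and 2 counts of it, in that order of replicates, and no library labelled knockout had any. With 3 counts per group taken as the floor, which covers counting error only, this is at least 4.59-fold lower. Without wild type replicate 1 only 3 wild type counts remained, which is the floor itself, so the difference rests on that library. Of the rest of the cluster, the brain metallothionein gene Mt3 had 1 count in all, in knockout replicate 1. The protein-coding neighbours within 100 kb of Mt1 were also read, a choice made after the data were seen. Bbs2 on the Mt4 side was lower (log2 fold change -1.57 ± 0.26, edgeR adjusted p = 0.000390). The nucleoporin gene Nup93, on the Mt1 side, was not called (0.17 ± 0.22, edgeR adjusted p = 0.544) and went to -0.023 with upper-quartile scaling and -0.010 without wild type replicate 2.

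**Figure D1:**
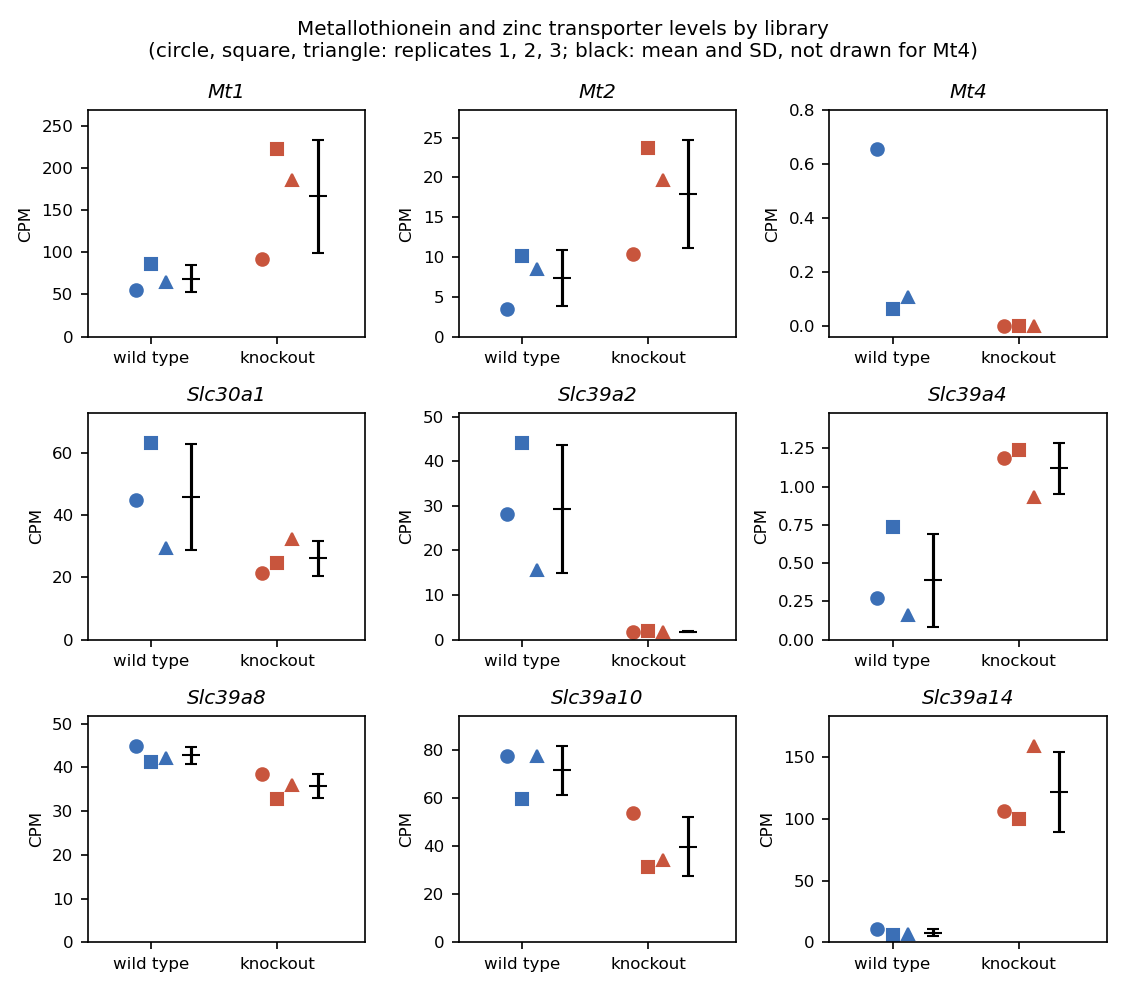
Levels in CPM (linear axes from 0, with a small margin below 0 for Mt4) of the 9 genes in 3 wild type libraries (blue) and 3 libraries labelled knockout (red), with circles, squares and triangles for replicates 1, 2 and 3 and black bars for the mean and SD (not drawn for Mt4). The groups lie far apart for Slc39a2 and Slc39a14, are separate but close for Mt1, Mt2 and Slc39a8, and overlap for Slc30a1.

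Slc30a1 (ENSMUSG00000037434, chromosome 1, 191906767 to 191913247, plus strand) encodes ZnT1, the exporter of zinc at the plasma membrane. Its level was 44.9, 63.4 and 29.5 CPM in the wild type, against 21.5, 24.5 and 32.3 CPM for libraries labelled knockout. Knockout replicate 3 was above wild type replicate 3, so the groups overlapped. Slc30a1 fell from 45.9 ± 17.0 to 26.1 ± 5.61 CPM, a log2 fold change of -0.81 ± 0.29 (edgeR adjusted p = 0.0347). The call was lost without wild type replicate 1 (edgeR adjusted p = 0.0661) or 2 (adjusted p = 0.174), and without knockout replicate 1 (adjusted p = 0.0822) or 2 (adjusted p = 0.0813). It was also lost without both libraries numbered 1 (adjusted p = 0.134) and in the 3 tests on FPKM (adjusted p = 0.0665 to 0.152).

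Slc39a2 (ENSMUSG00000072572, chromosome 14, 51892889 to 51896745, plus strand) encodes ZIP2, an importer that keratinocytes make as they differentiate. It had 515, 723 and 294 counts in the wild type, or 28.1, 44.2 and 15.6 CPM, and 28, 28 and 29 counts in the libraries labelled knockout, or 1.59, 1.83 and 1.80 CPM. The lowest wild type library was far above the highest library labelled knockout, and the wild type libraries varied more among themselves. Slc39a2 fell by 4.07 on the log2 scale (SE 0.39, edgeR adjusted p = 9.06e-06), and the interval of the knockout over wild type ratio ran from 0.0325 to 0.109. The call held in all 19 alternatives, with log2 fold changes from -4.37 to -2.53. The suprabasal keratinocyte genes had a median log2 fold change of -3.76 and the basal genes of -2.77 in the same libraries. The first bases of Slc39a2 overlap the last of Mettl17 on the same strand, and 2.96% of its 50-base windows also occur in Mettl17 transcripts. Mettl17 itself was lower (log2 fold change -0.97 ± 0.27, edgeR adjusted p = 0.0113).

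Slc39a10 (ENSMUSG00000025986, chromosome 1, 46807544 to 46892852, minus strand) encodes ZIP10, an importer found in epidermal and hair follicle progenitor cells. Its level was 77.5, 59.7 and 77.7 CPM in the wild type and 54.0, 31.2 and 34.4 CPM in the libraries labelled knockout. The groups did not overlap, and knockout replicate 1 was nearest to the wild type. Slc39a10 fell from 71.7 ± 10.3 to 39.9 ± 12.4 CPM, a log2 fold change of -0.85 ± 0.25 (edgeR adjusted p = 0.0148). The call was lost without wild type replicate 1 (edgeR adjusted p = 0.0600), wild type replicate 3 (adjusted p = 0.0711) or knockout replicate 3 (adjusted p = 0.0526).

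Slc39a14 (ENSMUSG00000022094, chromosome 14, 70303469 to 70351425, minus strand) encodes ZIP14, which also carries iron and manganese and is induced by IL6 in the liver. It had 11.0, 5.81 and 6.79 CPM in the wild type, against 106, 99.7 and 159 CPM for libraries labelled knockout. Every library labelled knockout was far above every wild type library. Slc39a14 rose 15.5-fold (log2 fold change 3.95 ± 0.32, edgeR adjusted p = 2.22e-06), with a 95% interval from 9.54 to 25.1. The call held in all 19 alternatives, with log2 fold changes from 2.84 to 4.35.

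Slc39a8 (ENSMUSG00000053897, chromosome 3, 135825279 to 135888572, plus strand) encodes ZIP8, the closest relative of ZIP14, which also carries manganese. Its level was 45.0, 41.1 and 42.0 CPM in the wild type and 38.4, 32.9 and 35.9 CPM in the libraries labelled knockout. All 3 values of the latter were lower, with little spread in either group. The difference did not pass the test (log2 fold change -0.26 ± 0.19, edgeR adjusted p = 0.276), and the interval of the ratio ran from 0.626 to 1.12. It was not called in any of the 19 alternatives.

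Slc39a4 (ENSMUSG00000063354, chromosome 15, 76612383 to 76617384, minus strand) encodes the importer ZIP4. It was scarcely detected, with 5, 12 and 3 counts in the wild type and 21, 19 and 15 counts in the libraries labelled knockout, so it passed the filter only through the latter. The levels were 0.273, 0.734 and 0.159 CPM against 1.19, 1.24 and 0.929 CPM and did not overlap. The difference did not pass the test (log2 fold change 1.53 ± 0.63, edgeR adjusted p = 0.0613). It was called without wild type replicate 2 (log2 fold change 2.33, edgeR adjusted p = 0.0305), with limma-voom (adjusted p = 0.0354) and with limma-trend on the filtered FPKM values (adjusted p = 0.0294 and 0.0221). Of the 8 tested genes 7 had groups that did not overlap, against 62.3% of all genes tested.

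**Figure D2:**
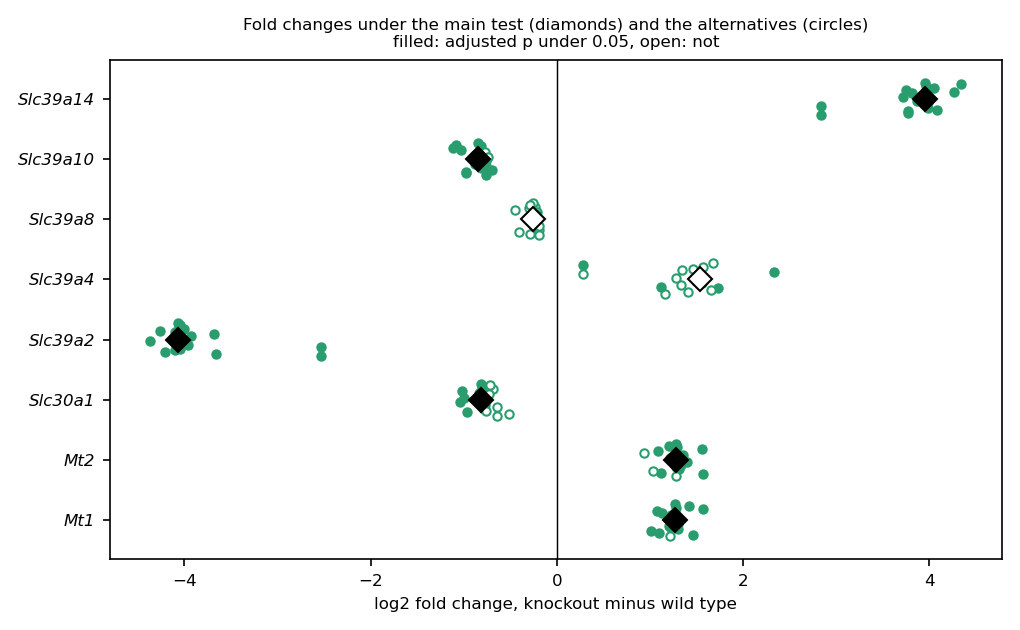
Log2 fold changes (knockout minus wild type, x axis) of the 8 tested genes under the main edgeR test (black diamonds) and 19 alternatives (green circles; Slc39a4 has 18), filled where the adjusted p was under 0.05. No gene changed direction, Slc39a2 and Slc39a14 were called throughout, and open circles show where Mt1, Mt2, Slc30a1 and Slc39a10 lost their call. The circles nearest to 0 for Slc39a2, Slc39a4 and Slc39a14 come from log2(FPKM + 1).

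Levels of different genes were compared per length, with the deposited FPKM values (fragments scaled to gene length and to the library). In the wild type the order of mean FPKM was Mt1 (54.0 ± 13.2), Mt2 (12.3 ± 5.92), Slc39a10 (11.5 ± 1.55), Slc30a1 (8.55 ± 3.23), Slc39a2 (8.31 ± 4.14), Slc39a8 (5.44 ± 0.169), Slc39a14 (0.724 ± 0.240), Mt4 (0.664 ± 0.794) and Slc39a4 (0.123 ± 0.0974). From Mt2 to Slc39a8, and between Slc39a14 and Mt4, neighbouring means differed by no more than the larger SD of each pair. In the libraries labelled knockout the order was Mt1 (133 ± 53.5), Mt2 (30.3 ± 11.5), Slc39a14 (11.5 ± 3.20), Slc39a10 (6.50 ± 1.99), Slc30a1 (4.95 ± 1.11), Slc39a8 (4.63 ± 0.366), Slc39a2 (0.501 ± 0.0396), Slc39a4 (0.358 ± 0.0506) and Mt4, listed at 0. There neighbouring means from Slc39a10 to Slc39a8 differed by no more than the larger SD of each pair. Slc39a14 thus moved from below Slc39a8 to above Slc39a10. Its FPKM was 0.0505 to 0.0817 times that of Slc39a10 in the wild type and 1.14 to 2.68 times in the libraries labelled knockout. These values divide by all annotated exon bases, which exceed the longest coding transcript most for Slc39a8 (7664 against 3533 bases) and Slc39a14 (10550 against 4926), and little for Slc39a10 (6095 against 5498). Per length of the longest coding transcript, chosen after the data were seen, Slc39a8 (10.1 ± 0.794) stood above Slc39a10 (7.21 ± 2.21) in the libraries labelled knockout, which turns their order, and Slc39a14 (24.6 ± 6.86) stayed below Mt2 and above both. In the wild type Slc39a2 (12.3 ± 6.11) and Slc39a8 (11.8 ± 0.367) then stood above Slc30a1 and next to Slc39a10 (12.7 ± 1.72).

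The summed metallothionein level was 66.9 ± 17.9 FPKM in the wild type and 163 ± 65.0 FPKM in the libraries labelled knockout, and Mt1 and Mt2 made up nearly all of it. Over the 14 Slc39a genes the sum was 94.6 ± 6.37 and 153 ± 28.5 FPKM, and over the 10 Slc30a genes 34.6 ± 5.17 and 43.3 ± 1.27 FPKM. None of the 3 sums overlapped between the groups (exact permutation test over unpaired libraries, two-sided, p = 0.1 for each, the smallest value 3 against 3 allow). Taken by pairs of the same replicate number, each sum was higher in 3 of 3 pairs (exact test, two-sided, p = 0.25, the smallest value 3 pairs allow). Slc39a14 took 0.776 ± 0.296% of the importer sum in the wild type and 7.49 ± 1.38% in the libraries labelled knockout. The share of Slc39a10 was 12.2 ± 2.35% and 4.50 ± 2.28%, that of Slc39a2 8.65 ± 3.80% and 0.331 ± 0.0392%, and that of Slc39a8 5.77 ± 0.523% and 3.11 ± 0.795%. Slc30a1 took 24.1 ± 5.66% of the exporter sum in the wild type and 11.4 ± 2.39% in the libraries labelled knockout. None of these shares of Slc39a14, Slc39a10, Slc39a2, Slc39a8 and Slc30a1 overlapped between the groups (exact permutation test, two-sided, p = 0.1 each).

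**Figure D3:**
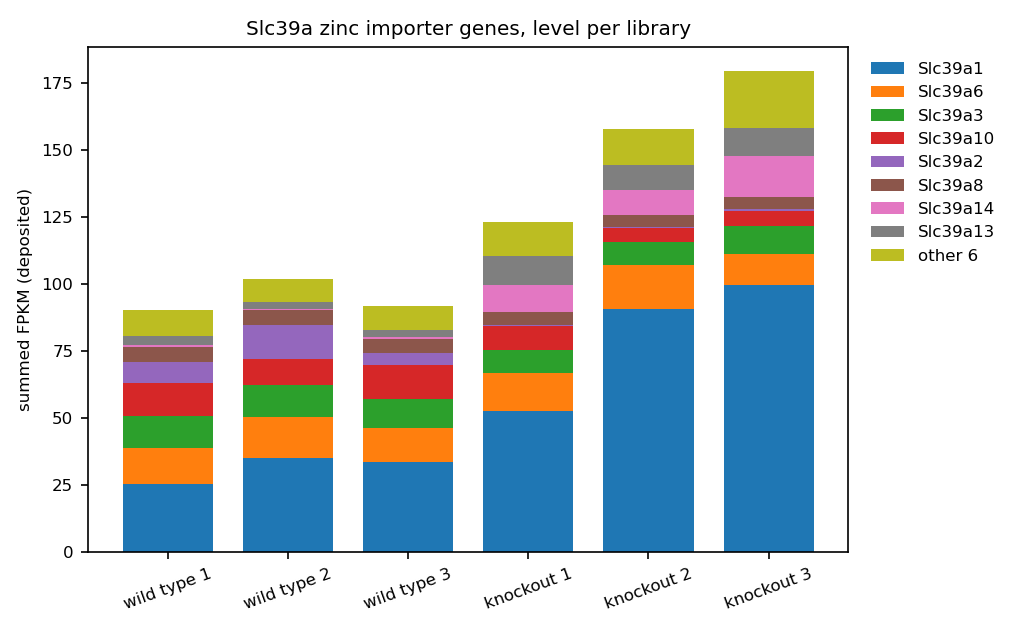
Deposited FPKM of the 14 Slc39a importer genes, stacked for each library, with 8 genes shown by colour and the other 6 summed. The wild type sums lie between 90.2 and 102 FPKM and those of the libraries labelled knockout between 123 and 179 FPKM, with wider bands of Slc39a1, Slc39a13 and Slc39a14 and narrower bands of Slc39a2 and Slc39a10 in the latter.

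The whole set of metallothionein, Slc30a and Slc39a genes with Mtf1 has 29 genes, of which 24 were tested. Of these 10 were higher and 3 lower, against 28.7% higher and 25.1% lower among all genes tested. The 3 lower genes were Slc39a2, Slc39a10 and Slc30a1. Slc39a12 and Slc39a4 passed the filter only through the libraries labelled knockout, so the filter itself favoured their direction. The other 22 held 9 higher and 3 lower genes. Over all 24, with Slc39a12 and Slc39a4 included, the median log2 fold change was 0.61, against -0.029 over all genes tested. Mtf1, which encodes the metal-responsive transcription factor, was 15.8 to 17.3 CPM in the wild type and 22.8 to 36.9 CPM in the libraries labelled knockout (log2 fold change 0.79 ± 0.24, edgeR adjusted p = 0.0154). Its groups did not overlap, and the call was lost without wild type replicate 1 (edgeR adjusted p = 0.0525) or 3 (adjusted p = 0.0532) or knockout replicate 3 (adjusted p = 0.0596).

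Of 14 importer genes, all tested, 5 were higher and 2 lower, against 28.7% higher and 25.1% lower among all genes tested. Among the 5, Slc39a12 passed the filter only through the libraries labelled knockout. Slc39a1, whose product ZIP1 is a widely made importer of the plasma membrane, had the highest FPKM of the family in both groups. It rose from 75.7 ± 11.3 to 192 ± 58.5 CPM, a log2 fold change of 1.34 ± 0.27 (edgeR adjusted p = 0.00150). Slc39a13, whose product ZIP13 is needed in connective tissue, rose from 14.7 ± 2.01 to 50.4 ± 3.91 CPM, a log2 fold change of 1.78 ± 0.21 (edgeR adjusted p = 3.44e-05). Slc39a12, best known from brain, had no wild type count and 95, 46 and 74 counts in the libraries labelled knockout (at least 78.1-fold higher, with the same floor). Slc39a11 rose from 9.34 ± 0.961 to 20.6 ± 8.80 CPM, a log2 fold change of 1.14 ± 0.33 (edgeR adjusted p = 0.0124), but not without knockout replicate 3 (adjusted p = 0.0560). The other 7 were not called, and in absolute size the fitted differences of Slc39a6 (0.031) and Slc39a9 (0.20) were the smallest. Slc39a3 (-0.40) was called lower with upper-quartile and library-size scaling (edgeR adjusted p = 0.0203 and 0.0343).

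Of 10 exporter genes 7 were tested, with 2 higher and only Slc30a1 lower. Among all genes tested 28.7% were higher and 25.1% lower, so 2 of 7 higher lies near the background. The higher genes were Slc30a5 and Slc30a7, whose products load zinc into the early secretory pathway. Slc30a5 rose from 40.0 ± 2.41 to 79.4 ± 6.63 CPM, a log2 fold change of 0.99 ± 0.19 (edgeR adjusted p = 0.00116) and Slc30a7 from 33.8 ± 3.62 to 63.1 ± 11.5 CPM (0.90 ± 0.21, adjusted p = 0.00428). Neither overlapped between the groups. Slc30a6, whose product pairs with that of Slc30a5, had 16.9 ± 2.30 and 21.9 ± 2.97 CPM and was not called (edgeR adjusted p = 0.184). Slc30a9 was not called (log2 fold change 0.43 ± 0.19, edgeR adjusted p = 0.0734) but was with the replicate number as a block (adjusted p = 0.0331). Slc30a8, the exporter gene of pancreatic beta cells, had no count in any library.

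**Figure D4:**
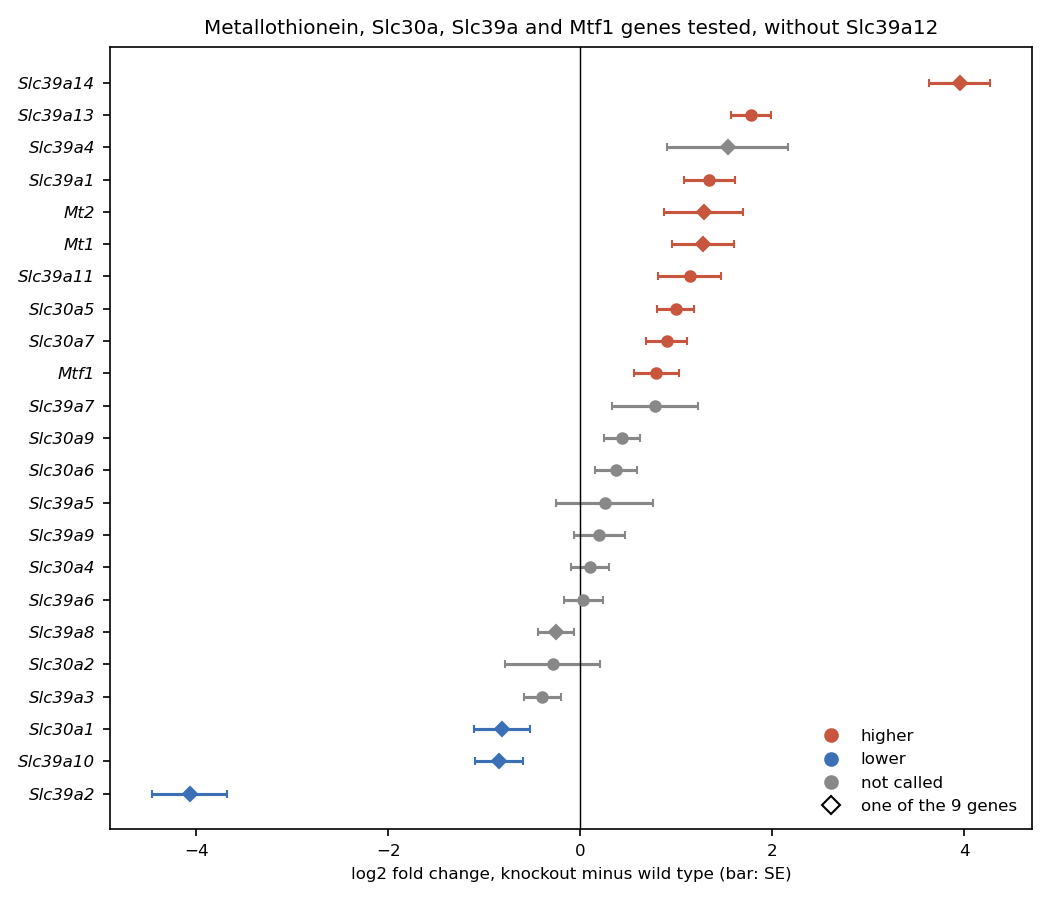
Log2 fold changes with SE (knockout minus wild type, x axis) of the tested metallothionein, Slc30a, Slc39a and Mtf1 genes, in order of size, with diamonds for the 9 genes of the main set and colours for the call. Slc39a12 is left out because it had no wild type count. Slc39a2, Slc39a10 and Slc30a1 are the only genes called lower, and Slc39a14 has the largest rise of those drawn.

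Genes that handle other metals carried by these proteins were read in the same fit. Of 13 copper genes tested 6 were higher and 1 lower, with a median log2 fold change of 0.81. Among all genes tested 28.7% were higher and 25.1% lower. Steap1 passed the filter only through the libraries labelled knockout, and the other 12 copper genes held 5 higher and 1 lower. The metalloreductase genes Steap4 (7.02 ± 2.90 to 225 ± 88.3 CPM) and Steap3 (4.87 ± 1.37 to 38.6 ± 9.13 CPM) both rose (edgeR adjusted p = 2.79e-06 and 9.20e-06). Ccs, the copper chaperone of superoxide dismutase, fell by 0.74 on the log2 scale (edgeR adjusted p = 0.0193), a call lost without wild type replicate 2 (adjusted p = 0.0975) or knockout replicate 3 (adjusted p = 0.0550). Of 5 genes of manganese and divalent metal transport 3 were higher and none lower. Slc11a1, a metal transporter of phagocytes, rose from 2.56 ± 0.482 to 72.6 ± 8.54 CPM, beside the macrophage genes given above, and the Golgi gene Tmem165 rose from 56.4 ± 4.53 to 143 ± 16.9 CPM (log2 fold changes 4.83 ± 0.25 and 1.34 ± 0.20, edgeR adjusted p = 2.05e-07 and 0.000221).

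Genes of the signals known to induce metallothioneins were read in the same way. Among all genes tested 28.7% were higher and 25.1% lower, with a median log2 fold change of -0.029. Of 17 genes of the IL6 cytokine family, its receptors and feedback, 10 were higher and 3 lower, with a median of 1.68. Of the 17, Il6, Lif and Osm passed the filter only through the libraries labelled knockout, and Ctf1 and Il11 only through the wild type, so the filter itself favoured their direction. Of the other 12, 7 were higher and 2 lower. Osm, which encodes oncostatin M and had 2, 2 and 1 wild type counts, went from 0.0948 ± 0.0368 to 66.3 ± 8.58 CPM and the feedback gene Bcl3 from 5.47 ± 1.25 to 87.6 ± 14.7 CPM, whereas Ctf1 fell from 17.8 ± 3.72 to 1.37 ± 1.07 CPM (edgeR adjusted p = 5.76e-07 for Bcl3). Of 10 glucocorticoid receptor and responsive genes tested 5 were higher and 1 lower, with a median of 0.90. Hsd11b1 passed the filter only through the libraries labelled knockout, and the other 9 held 4 higher and 1 lower. Tsc22d3 rose from 51.2 ± 4.82 to 605 ± 93.8 CPM and Dusp1 from 55.6 ± 13.2 to 399 ± 55.0 CPM, whereas Zbtb16 fell from 30.1 ± 13.3 to 3.42 ± 1.60 CPM (edgeR adjusted p = 1.29e-06, 7.46e-06 and 0.000128). The part of the macrophage and neutrophil genes given above in these counts was not tested.

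The protein-coding genes whose log2 CPM pattern over the 6 libraries was nearest to that of Mt1 were Ethe1, a mitochondrial sulfur dioxygenase gene, and the histone gene Hist1h2bc. Their root mean square differences from Mt1 were 0.0958 and 0.106 log2 units. For Mt2 they were the scramblase gene Plscr1 (0.179) and the signalling regulator gene Rgs2 (0.243). These are descriptions over 6 libraries in 2 groups, where any gene that differs by a like amount lies near.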

How the data were processed

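RNA-seq of newborn mouse epidermis was analysed in 3 wild type and 3 Paxbp1 knockout libraries. The authors deposited whole-number read counts per gene and FPKM values for the same 54532 genes. Alignment with HISAT2 2.0.5 and counting with featureCounts 1.5.0-p3 on mm10 are listed in the submitters' processing notes. Their settings, strand included, and the annotation were not stated in the sources used here. The deposited FPKM values equal the counts per gene length times 1 constant per library (0.854 to 1.12 relative to the count totals), so they carry a scaling of the authors beyond library size. All 9 gene positions and exon lengths were those of GENCODE M21 (GRCm38).

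Counts were tested with edgeR 4.0.16 (R 4.3.3): TMM factors, the expression filter (minimum count 10, minimum total 15), robust quasi-likelihood test, genotype as the only term, and Benjamini-Hochberg adjustment over 16471 genes. CPM values use the TMM factors, SE was derived from the log2 fold change and the F statistic, and 95% intervals rest on it. The test was tried on simulated data in which few genes were changed, whereas 53.8% of genes were called here. That trial therefore does not check the scaling for these data. Alternatives were 3 other scalings, 2 other filters, DESeq2 1.42.0, limma-voom (limma 3.58.1), edgeR without the robust option, the replicate number as a block, leaving out each library or both numbered 1, and limma-trend on FPKM with pseudocounts of 1 and 0.1. An exact test by pairs and levels per longest coding transcript were added after the data were seen.

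The genes and lists were chosen with earlier results of these data known. All 9 genes are named. Of other zinc genes, the smallest adjusted p per family and direction were named with levels, and of the copper, manganese, IL6 and glucocorticoid lists the 2 smallest in the majority direction and 1 in the other. Further names were chosen after values were seen. Nearest patterns were taken among protein-coding genes whose mean reached 5 CPM, on log2(CPM + 1). The 2 found for Mt4 are not given, since at its level that scale is nearly flat.

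Libraries of a group correlated at 0.966 to 0.986 on log2(CPM + 1) and differed by more than sampling noise (chi-square over degrees of freedom 29.8 to 80.5), so none was a duplicate. For the check of pairing, each library's deviations from its group mean were correlated across genes. The same-numbered pairs gave 0.293, 0.451 and 0.214, and the remaining pairs -0.434 to 0.102. Every same-numbered pair was above 0.1, as was wild type replicate 1 with knockout replicate 3 (0.102). On these values the numbers were taken to pair the libraries. This is weak evidence, because deviations within a group sum to 0 and the values are not independent, and it rests on these values alone, since no label explains the numbers or says that libraries came from separate animals. P-values then measure the spread between these libraries. The main test, with genotype as its only term, leaves this pairing out, and the replicate block takes it in. Without a stated strand setting, antisense reads cannot be told apart: 45.8% of the 50-base windows of Mt2 and 8.01% of those of Slc30a1 occur in antisense genes, which had 0 to 5 and 2 to 66 counts. No such window was shared between Mt1, Mt2 and Mt4.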

Additional observations from a re-analysis of the deposited data

How the results depend on the processing

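None of the 8 tested genes changed direction in any alternative. Their outcome, called or not called, stayed the same in 131 of 151 single results. A call was lost in 16 and gained in 4. The 131 include 19 results of Slc39a8 and 14 of Slc39a4, which were not called in the main test. Leaving out 1 library at a time gave 2 to 4 genes higher and 1 to 2 lower, against 3 and 3, and without wild type replicate 1 only Slc39a2 stayed called lower. In the whole zinc set the same fits gave 7 to 11 higher and 1 to 2 lower, against 10 and 3. Limma-trend on unfiltered log2(FPKM + 1) called 1 of the 9 genes higher, Slc39a14, and 6 of the zinc set, over 30735 genes tested, with Mt1 at an adjusted p of 0.0547. With no filter Mt4 was called lower by edgeR (adjusted p = 0.0257), but not by that limma-trend test (adjusted p = 0.182). The replicate block changed no call of the 8 genes, and gave log2 fold changes of 1.21 for Mt1, 1.33 for Mt2, -0.77 for Slc30a1, -0.88 for Slc39a10, -3.96 for Slc39a2 and 3.97 for Slc39a14. With the replicate block, counts were 3 higher and 3 lower, and 11 higher and 3 lower in the zinc set. The median over all genes tested was -0.029, and became -0.22 with upper-quartile and -0.18 with library-size scaling. Under them Slc30a4 went from 0.097 to -0.095 and -0.046 and Slc39a6 from 0.031 to -0.16 and -0.12. Without both libraries numbered 1 these were -0.0097 and -0.011. With single libraries left out Slc30a4 ranged from 0.0209 to 0.19, Slc39a5 from -0.0582 to 0.59, Slc39a6 from -0.0844 to 0.16, Slc39a9 from -0.0307 to 0.41 and Nup93 from -0.0101 to 0.30, and Nup93 was -0.023 with upper-quartile scaling. None of these reversed values was called, and their cause was not tested. The 2 limits of depth are Mt4 (15 counts in all) and Slc39a4 (75 counts).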
